A study of Mus musculus with 3 samples.

Results

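Endothelial cells line blood and lymph vessels and make up a large share of the cells of the lung, where a dense capillary bed lies against the air sacs. They hold together through cadherin and immunoglobulin-like adhesion proteins, sense blood-borne signals through G protein-coupled and tyrosine kinase receptors, and keep the vessel wall free of clots. Their identity rests on ETS factors such as ERG and FLI1, on SOX factors of the F group, on GATA2 and on the flow-responsive factor KLF2. The 37 genes described here are a fixed set of such endothelial genes, each found by its symbol in the platform annotation of the array. All 37 were measured, out of 22180 named genes, and they rested on 38 of 41345 probe sets because Cyyr1 had 2. Another 2 probe sets named a member together with a second gene and were not used.

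RNA was measured on 3 mouse whole-transcript arrays, 1 per group. One array held lung cells of FVB mice, an inbred strain, after an injection of saline, and one held lung cells of FVB mice 1 week after an intraperitoneal injection of the carcinogen urethane. The third held FULA 1, a mouse lung adenocarcinoma line grown in serum-supplemented medium. No other treatment or allele is given in the labels. The sources used here give neither the age of the mice, nor how many stood behind a lung array, nor the time of the saline lung. The design sets the lung after the carcinogen against the saline lung, and the line against each lung. There were no replicates, so no test was run, and each difference compares single arrays rather than conditions. FULA 1 is 1 array in both of its comparisons, so these are not independent of each other. In whole lung, fewer cells of a type and less RNA per cell cannot be told apart, and a line grown without vessels is set here against a tissue that holds them.

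The deposited log2 values differed in scale between arrays: the median probe set stood at 4.96 on FULA 1, 0.08 for saline and 1.22 for urethane lung. Levels are therefore given as percentile ranks among all probe sets of an array, which no monotone scaling changes, and differences as log2 differences after quantile normalization. A gene counts as lower or higher at 2-fold or more (1 on the log2 scale) where the higher of both values reached a floor of 2.37, the median over all genes and arrays. The 95th percentile of 1105 olfactory receptor genes on each array marks background (1.96 on FULA 1, 2.46 for saline and 2.44 for urethane lung, normalized log2). Where the lower value lay under this mark, a bound with the mark in its place is given as "at least". All 10 lung epithelial markers lay above the mark on both lung arrays; on FULA 1, 7 of the 10 did, Krt8 at 10.27 and Scgb1a1 at 1.27 (normalized log2).

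Most members stood high on both lung arrays and in the middle of the FULA 1 array. Of the 38 probe sets, 23 had a percentile rank above 90 for saline and 23 for urethane lung, where 10.8% and 10.7% of the 23521 probe sets with 1 gene name did. On FULA 1 only 1 did, the probe set of Selp, against 11.7% of named probe sets. The median member rank was 93.5 on each lung and 50.4 on FULA 1, beside a median of 54.7 over named probe sets on that array. Above the background mark lay 34 of the 37 genes (91.9%) on either lung and 22 (59.5%) on FULA 1, while 49.5%, 48.9% and 58.2% of all genes did on saline lung, urethane lung and FULA 1. The members' share above background on FULA 1 was thus near that of any gene.

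**Figure D1:**
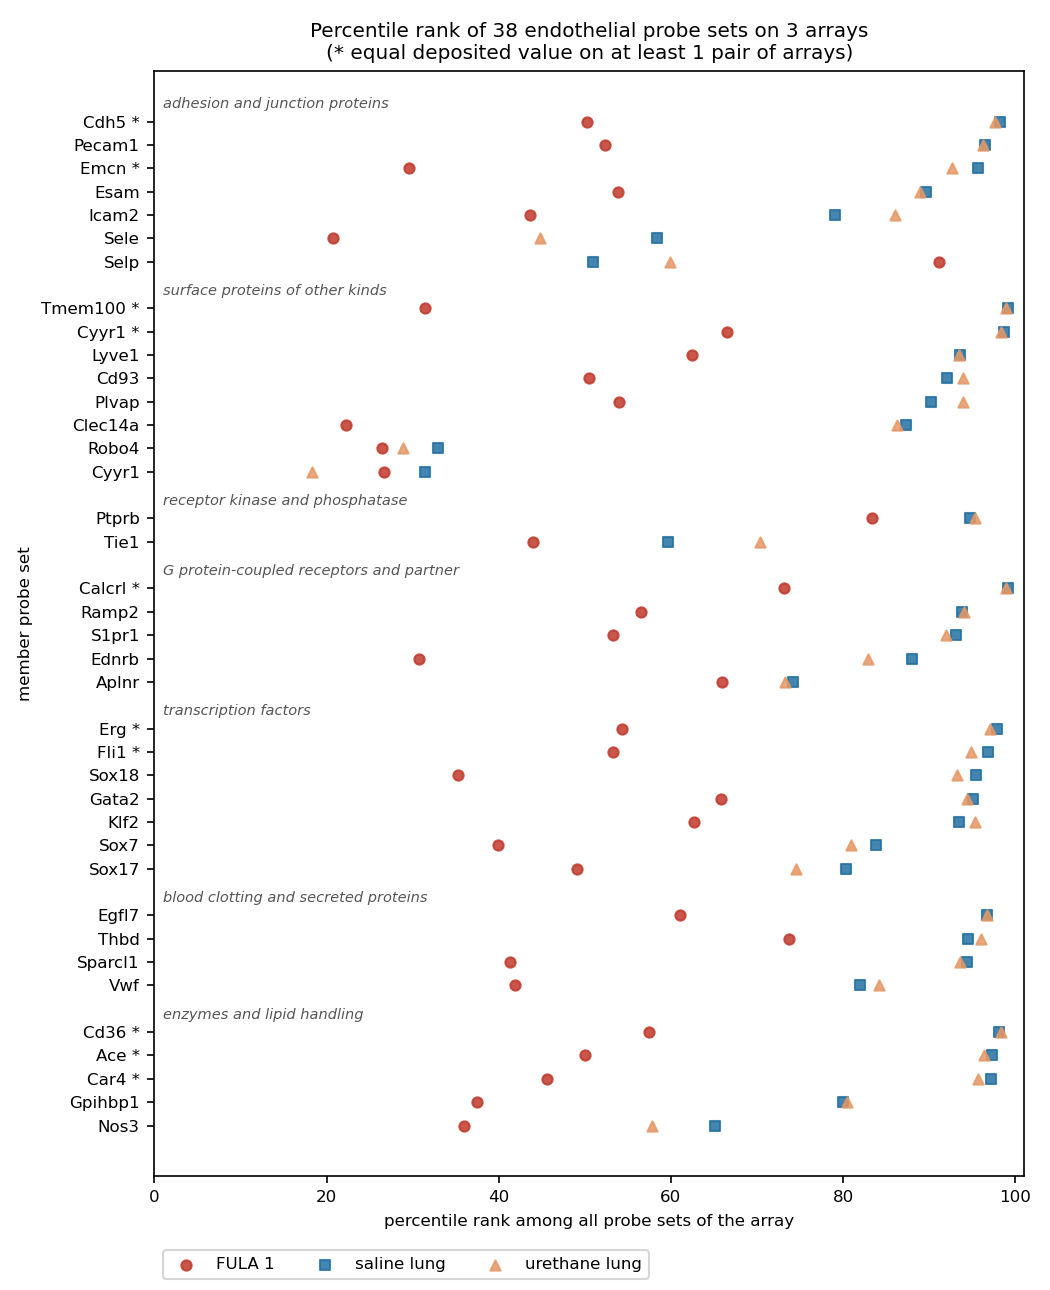
Percentile rank (horizontal axis, 0 to 100) of each member probe set (vertical axis, grouped by role) on FULA 1 (circles), saline lung (squares) and urethane lung (triangles), 1 array each; an asterisk marks a deposited value that is equal on at least 1 pair of arrays. The lung points gather above 90 for most members while the FULA 1 points spread from 20.8 to 91.1, and Selp is the member whose FULA 1 point lies far to the right of both lungs.

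Several of these genes carried exactly the same deposited value, to the last digit, on more than 1 array. Calcrl stood at 6.81, Erg at 5.23 and Emcn at 3.96 on all 3 arrays. Tmem100 (6.73), Cyyr1 (6.12 for its higher probe set), Cdh5 (5.56) and Fli1 (4.48) were equal on both lungs. Car4 (4.73) and Ace (4.97) were equal on FULA 1 and urethane lung, and Cd36 (5.46) on FULA 1 and saline lung. In all, 10 of the 38 member probe sets (26.3%) were equal on at least 1 pair of arrays, against 0.317% of all probe sets. The members were chosen with earlier results of these data known, and equal values were named in the rule, so this contrast is description only. Of 57 other endothelial genes, described further below, 2 were equal on a pair. For all 3 arrays the counts were 3 members and 21 probe sets (0.0508%), and for the pair of lungs 7 members and 107 probe sets (0.259%). FULA 1 and saline lung shared the value of 4 members and of 0.0677% of probe sets, and FULA 1 and urethane lung that of 5 members and of 0.0919%.

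These genes were also ones whose deposited values lay close together on all 3 arrays. Only 279 of the 41345 probe sets had all 3 deposited values within 1 of each other (log2), and 99 of these (35.5%) were equal on at least 1 pair. The members held 11 such probe sets, of which 9 were equal on a pair; the others were Pecam1 and Sox18. Tmem100 was the member outside this range that was still equal on the lungs, at 4.05 on FULA 1. Why values are equal was not tested. The same deposited value has a different rank on each array: Emcn at 3.96 ranked at 29.6 on FULA 1, 95.6 for saline and 92.6 for urethane lung, and Calcrl at 6.81 ranked at 73.1, 99.1 and 99.0. The normalized differences of such genes, like those of all other genes, come from the ranks alone.

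**Figure D2:**
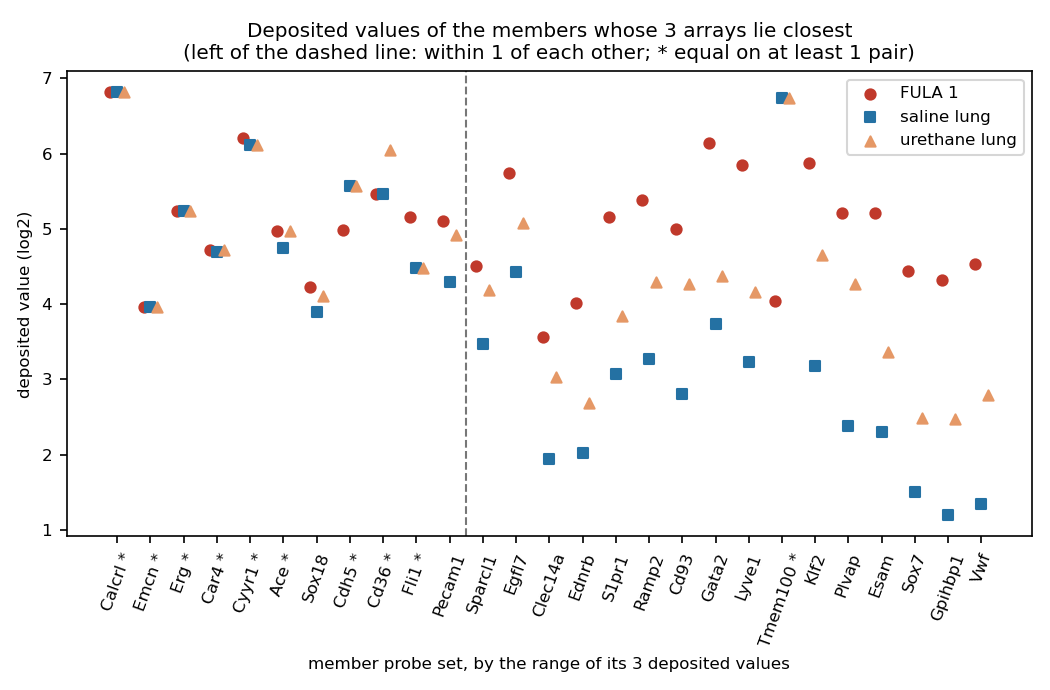
Deposited log2 value (vertical axis) of the member probe sets whose 3 arrays lie closest (horizontal axis, ordered by range) on FULA 1 (circles), saline lung (squares) and urethane lung (triangles); an asterisk marks equality on at least 1 pair. Left of the dashed line lie the 11 probe sets within 1 of each other, with Calcrl, Emcn and Erg at a single value; further right FULA 1 lies above both lungs for all probe sets drawn except Tmem100.

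The stretches upstream of 4 members are shown because 3 of them, Calcrl, Emcn and Erg, hold the value shared by all arrays, and Selp is the member that stood higher in FULA 1. RefSeq promoter sequences (build GRCm38.p6) were found for 16 of the 37 members, with 22 start sites. Each line gives the 250 bases before the most upstream start, 5′ to 3′ on the gene's strand, with the letters AGGAAG or their reverse complement CTTCCT, a form of the motif bound by ETS factors, in capitals. The places are chr2:84425267-84425516 on the minus strand for Calcrl, chr3:137340828-137341077 on the plus strand for Emcn, chr16:95586594-95586843 on the minus strand for Erg and chr1:164115014-164115263 on the plus strand for Selp.
Calcrl: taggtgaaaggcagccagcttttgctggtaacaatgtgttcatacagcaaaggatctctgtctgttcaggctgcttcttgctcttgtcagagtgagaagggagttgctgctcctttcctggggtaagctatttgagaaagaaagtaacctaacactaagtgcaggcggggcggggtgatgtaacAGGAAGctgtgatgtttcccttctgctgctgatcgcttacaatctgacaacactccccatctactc
Emcn: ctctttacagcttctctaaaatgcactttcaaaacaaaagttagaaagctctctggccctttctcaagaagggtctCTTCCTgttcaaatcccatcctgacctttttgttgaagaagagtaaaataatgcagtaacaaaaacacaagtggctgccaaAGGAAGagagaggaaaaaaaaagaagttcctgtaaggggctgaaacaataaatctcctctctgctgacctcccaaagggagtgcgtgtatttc
Erg: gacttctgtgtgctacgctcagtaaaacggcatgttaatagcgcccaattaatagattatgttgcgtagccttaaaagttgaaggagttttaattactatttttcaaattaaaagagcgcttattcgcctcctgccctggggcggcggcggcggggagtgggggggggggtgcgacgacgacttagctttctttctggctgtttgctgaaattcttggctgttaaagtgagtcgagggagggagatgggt
Selp: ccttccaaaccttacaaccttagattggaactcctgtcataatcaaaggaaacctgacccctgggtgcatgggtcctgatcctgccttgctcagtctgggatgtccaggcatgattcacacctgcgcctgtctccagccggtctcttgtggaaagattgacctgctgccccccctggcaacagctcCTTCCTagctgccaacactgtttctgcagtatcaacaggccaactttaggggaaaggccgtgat

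Calcrl and Selp held 1 match each, Emcn 2, and the Erg stretch none. Over all members the AGGAAG letters, searched on both strands, were in 11 of 22 windows (50%), against 29.5% of the 32851 RefSeq promoter windows of the same length. The letters ACAAT, a core bound by SOX factors, were in 7 of 22 windows (31.8%) against 27.7%, and CACCC, a core bound by KLF factors, in 14 (63.6%) against 52%. For factors of the GATA family, the site searched was AGATAA, present in 1 window (4.55%) against 9.99%. Windows of 1 gene are counted separately, and a match is a description of these letters, not a binding site.

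Against the saline lung, FULA 1 was lower for nearly the whole set. Of the 37 members 36 reached the floor, and 33 were at least 2-fold lower and 1 at least 2-fold higher in FULA 1, where 22% of the 13590 genes past the floor were lower and 22.6% higher. The median member difference was -3.07 (log2, FULA 1 minus saline lung), beside -0.11 over all genes. Against the urethane lung 35 members reached the floor, 32 were lower and 1 was higher, where 19.5% of 13264 genes were lower and 22.1% higher, and the median was -3.09 beside -0.08. Most members reached the floor through the lung value alone, and such a gene could not be called higher in FULA 1. With no floor, 33 members were lower and 1 higher than in saline lung, where 14.7% and 14.6% of all 22180 genes were. For urethane lung these counts were 32 and 1, where 12.7% and 13.7% of all genes were. In genes with 2 probe sets past the floor, the 2 differences lay a median of 1.05 apart against saline lung and 1.00 against urethane lung. A difference near 2-fold is thus about as large as this spread. It was exceeded downwards by 33 and 32 members, and in either direction by 42.1% and 41.3% of all genes past the floor. Without the members of equal deposited value on the arrays compared, 29 of 33 and 27 of 32 members were lower. With values under the background mark held at it, 31 members were lower than saline lung, Sele and Nos3 no longer counted, and 32 than urethane lung. With the values as deposited, whose scales differ, 26 members would instead be at least 2-fold higher in FULA 1 than in saline lung and 1 lower, so each direction here rests on placing the arrays on one scale.

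**Figure D3:**
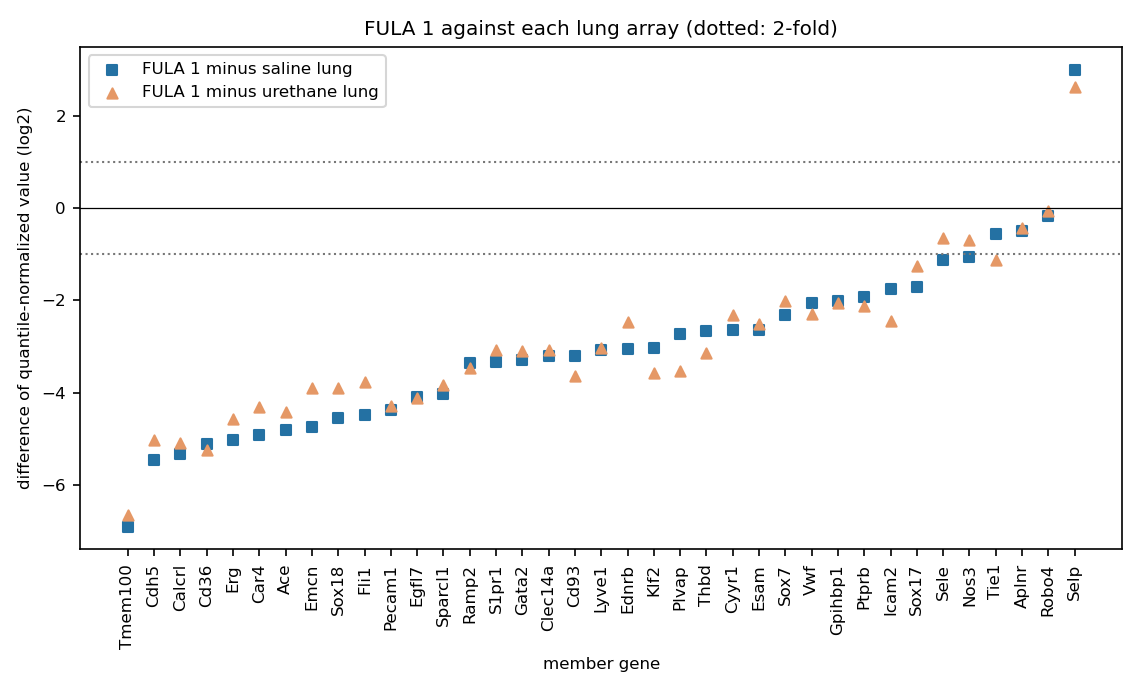
Difference of the quantile-normalized log2 value (vertical axis) for each member (horizontal axis, ordered by the saline comparison), as FULA 1 minus saline lung (squares) and FULA 1 minus urethane lung (triangles), with dotted lines at 2-fold. Differences run from Tmem100 at -6.89 and -6.64 to Robo4 near 0, and Selp alone lies above the upper dotted line, at 2.99 and 2.63.

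Of the 7 adhesion and junction genes, 6 were lower in FULA 1 than in saline lung and 1 was higher. The lower ones include Sele, which lay under the background mark on both arrays. Cdh5, the cadherin of endothelial junctions, had normalized log2 values of 2.10 on FULA 1, 7.55 for saline and 7.13 for urethane lung, a difference of -5.45 against saline lung. Pecam1, the adhesion molecule CD31, had 2.17, 6.53 and 6.46, a difference of -4.36. On FULA 1 both lay just above the background mark of 1.96. Emcn, the mucin-like endomucin of capillaries and veins, had 1.52, 6.25 and 5.42 and was lower than saline lung by at least 4.29. Esam, a junctional immunoglobulin-like protein, ranked at 53.9 on FULA 1, 89.6 for saline and 89.0 for urethane lung. Icam2, a ligand of leukocyte integrins, ranked at 43.6, 79.0 and 86.1.

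The selectins slow leukocytes on inflamed vessel walls, and one of them was the member that stood higher in FULA 1. Selp, P-selectin of platelets and endothelial cells, had normalized log2 values of 5.11 on FULA 1, 2.12 for saline and 2.48 for urethane lung. Its FULA 1 value exceeded saline lung by at least 2.65 and urethane lung by 2.63, and its percentile ranks were 91.1, 50.9 and 59.9. It rested on 1 probe set. Sele, E-selectin, ranked at 20.8, 58.3 and 44.8 and lay under the background mark on all 3 arrays, so it is given no size even though its normalized difference from saline lung passed 2-fold. Of 8 measured platelet and megakaryocyte genes 2 lay above the mark on FULA 1, Itgb3 (3.98) and Ppbp (7.80), while Pf4 was at 1.26 and Gp9 at 1.86 (normalized log2); their part in the value of Selp was not tested.

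Other surface proteins included the member with the widest difference. Tmem100, a membrane protein of BMP signalling in endothelium, had normalized log2 values of 1.57 on FULA 1, 8.46 for saline and 8.21 for urethane lung and was lower in FULA 1 by at least 6.50 and 6.25. Plvap, which forms the diaphragms of fenestrae and caveolae, had 2.23, 4.95 and 5.75. Cd93, a C-type lectin-like receptor, ranked at 50.5, 92.1 and 94.0, and Clec14a, its relative, at 22.2, 87.3 and 86.2. Lyve1, the hyaluronan receptor of lymphatic vessels and of some macrophages, ranked at 62.5, 93.6 and 93.5. Robo4, a guidance receptor of vessels, ranked at 26.4, 33.0 and 28.8 and was under the mark on every array, so these arrays gave no usable level of it. The probe sets of Cyyr1 disagreed: one ranked at 66.5, 98.7 and 98.4, the other at 26.7, 31.5 and 18.4, so that FULA 1 minus saline lung was -5.17 for one and -0.12 for the other.

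Of the receptor-type kinase and phosphatase, Tie1, an orphan receptor of the angiopoietin system, was low throughout, with normalized values of 1.91 on FULA 1, 2.47 for saline and 3.02 for urethane lung. FULA 1 minus saline lung was -0.56, short of 2-fold, and Tie1 was lower than urethane lung by at least 1.06. Ptprb, the vascular phosphatase VE-PTP that acts on Tek and Cdh5, had ranks of 83.3, 94.7 and 95.3 and a difference of -1.92 from saline lung. When each array was only moved to 1 common median, Ptprb differed by -0.53 from saline lung and -0.45 from urethane lung, and Tie1 by -0.98 from urethane lung, all short of 2-fold. Of the 5 genes of G protein-coupled receptors and their partner, 4 were lower than either lung. Calcrl and Ramp2, which together form an adrenomedullin receptor, differed by -5.32 and -3.36 from saline lung, and S1pr1, the sphingosine 1-phosphate receptor that tightens the vessel barrier, by -3.32. Ednrb, an endothelin receptor, ranked at 30.7, 88.0 and 82.9. Aplnr, the apelin receptor, ranked at 66.0, 74.2 and 73.2; its difference of -0.49 from saline lung became 0.44 when each array was only moved to 1 common median.

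All 7 transcription factors were lower in FULA 1 than in either lung by 2-fold or more, with medians of -3.30 against saline lung and -3.56 against urethane lung. Sox17 was the closest to the threshold, at -1.25 against urethane lung, and stood at -0.91 there when each array was only moved to 1 common median. Erg had normalized log2 values of 2.24 on FULA 1, 7.27 for saline and 6.81 for urethane lung, and Fli1, which blood cells also express, had 2.20, 6.67 and 5.98. The SOX factors of the F group were graded on the lungs: Sox18 ranked at 95.5 on saline lung, Sox7 at 83.8 and Sox17 at 80.3, whereas on FULA 1 they ranked at 35.3, 39.9 and 49.1. Ranks of different probe sets also reflect probe response, so this is no order of RNA amounts. Gata2, also a gene of mast cells and blood progenitors, ranked at 65.8, 95.1 and 94.4. Klf2, the factor induced by laminar flow, had 2.60, 5.62 and 6.16 (normalized log2).

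All 4 genes of clotting control and secreted proteins were lower in FULA 1 than in either lung, as were all 5 genes of enzymes and lipid handling against saline lung and 4 of the 5 against urethane lung. Thbd, thrombomodulin, which turns thrombin towards protein C, kept a rank of 73.7 on FULA 1 against 94.5 and 96.0. Vwf, the clotting factor stored by endothelial cells, was lower in FULA 1 by at least 1.94 and 2.16, and Sparcl1, a matrix protein, by at least 3.90 and 3.69. Egfl7, a secreted vessel protein, differed by -4.09 and -4.10. Car4 and Ace, the membrane enzymes carbonic anhydrase 4 and angiotensin-converting enzyme of lung capillaries, were lower than saline lung by at least 4.89 and by 4.81. Cd36, a fatty acid receptor that macrophages and fat cells also carry, had 2.36, 7.46 and 7.59 (normalized log2). Gpihbp1, which holds lipoprotein lipase on the capillary wall, was lower by at least 1.77 and 1.80, and Nos3, the endothelial nitric oxide synthase, ranked at 35.9, 65.2 and 57.8. Nos3 was the gene that did not pass 2-fold against urethane lung. It lay under the background mark on FULA 1 and urethane lung, so that difference is given no size. Against saline lung (-1.06) Nos3 was lower by at least 0.77, a bound short of 2-fold.

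Other endothelial genes gave a like picture with more exceptions. From a list of 60 further endothelial genes, 57 were measured and 52 reached the floor in the saline comparison: 37 were lower by 2-fold or more and 3 higher by as much in FULA 1 (median -1.79). Kdr, the main VEGF receptor, differed by -3.99, the angiopoietin receptor Tek by at least 3.16 downwards, the TGF-beta co-receptor Eng by -5.23 and the claudin Cldn5 by at least 4.23 downwards. Flt1, another VEGF receptor, differed by -0.65. The lowest were Epas1 at -6.80 and Eng, and the highest Efnb2, an ephrin ligand, at 1.86 and Nrp2, a semaphorin and VEGF co-receptor, at 1.78. Against urethane lung 39 of 53 were lower and 2 higher, with a median of -1.67, Epas1 (-6.71) and Eng (-4.97) lowest and Efnb2 (1.77) and Reln (1.37, at least 0.37) highest. Eng was equal as deposited on FULA 1 and saline lung, and Cldn5 on FULA 1 and urethane lung.

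Markers of other lung cells also differed between FULA 1 and the lungs, in both directions, and their part in the result was not tested. Of 11 leukocyte markers 1 lay above the background mark on FULA 1 (Coro1a) against 9 for saline and 8 for urethane lung, with a median difference of -1.46 from saline lung. The summed normalized value of the leukocyte list was 19.3 on FULA 1, 37.1 for saline and 34.6 for urethane lung. Fibroblast genes had a median of -2.67, with 5 of the 6 past the floor lower, and mural cell genes one of -1.64, with 8 of 10 lower. Alveolar macrophage genes had a median of -0.85, with 2 of 6 lower and Mrc1 higher by at least 2.77, and fat cell genes one of -0.02, with 2 of 3 lower and 1 higher. Mesothelial genes had a median of -1.63, with 4 of 5 lower and Msln higher by 3.16. Lung epithelial genes had a median of -2.97, with 6 of 10 lower and Krt8 (4.84), Krt18 (2.89) and Cdh1 (2.06) higher.

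**Figure D4:**
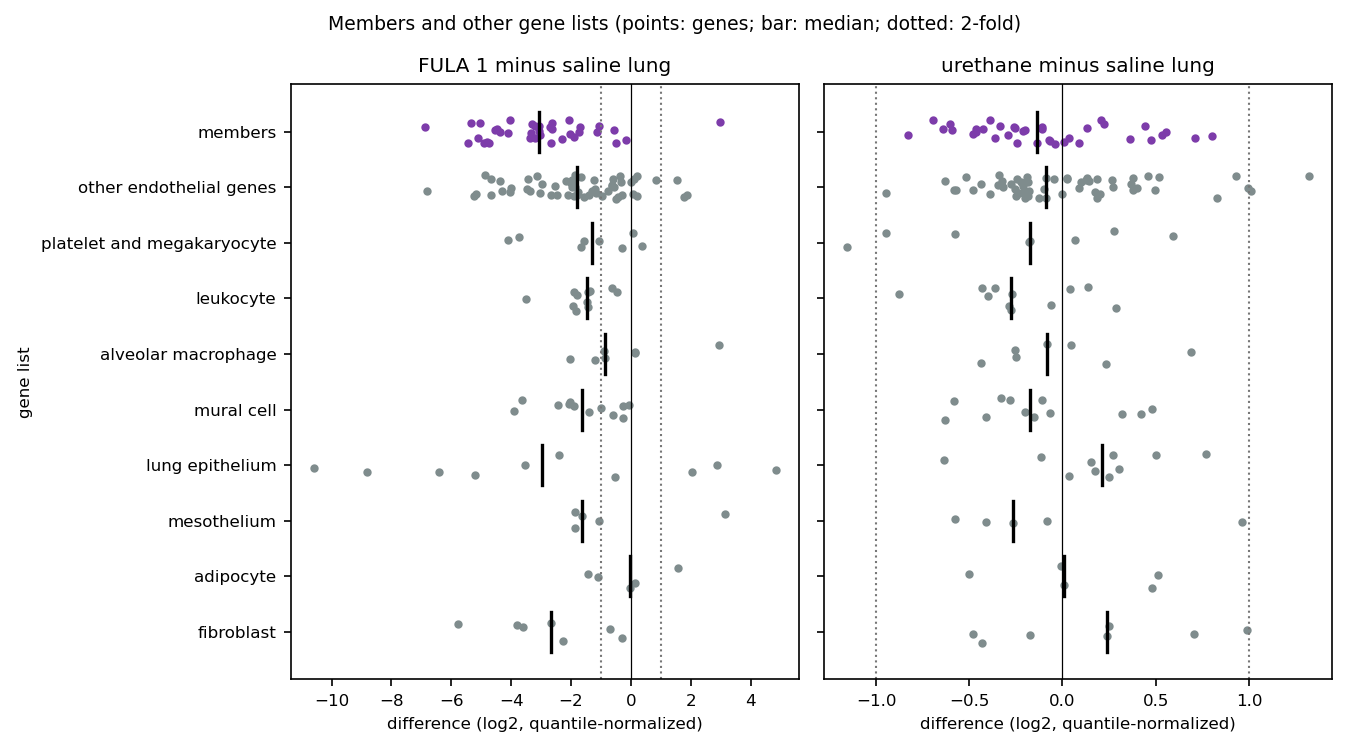
Quantile-normalized log2 difference (horizontal axis) of each gene (points) in the members and 9 other lists (vertical axis), as FULA 1 minus saline lung on the left and urethane minus saline lung on the right; vertical bars are list medians and dotted lines 2-fold. On the left the members have a median of -3.07 and the other endothelial genes one of -1.79, and on the right both medians lie between -0.2 and 0.

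Between the lungs the count of differing endothelial genes depended on the scaling. After quantile normalization no member was 2-fold higher or lower in the urethane lung among the 36 that reached the floor, where 3.27% of 12519 genes were higher and 1.31% lower. With each array only moved to 1 common median, 7 members were at least 2-fold lower and 0 higher, where 1.69% of 12039 genes were lower. Of these 7, 6 were equal as deposited on both lungs, and the other was Car4, at 4.69 for saline and 4.73 for urethane lung. The median difference was -0.14 (log2, urethane minus saline lung), beside -0.06 over all genes, with 24 members below 0 (64.9%) and 13 above, where 55.6% of all genes lay below 0. All 7 members of equal deposited value on both lungs were among the 24, a sign given by the normalization. Of the other 30 members 17 lay below 0 (56.7%) and 13 above, with a median of -0.07. As deposited, each of these 30 was higher in the urethane lung, where the median of all genes was 1.09 higher. Every sign below 0 thus rests on placing the arrays on one scale. As a measure of spread between probe sets, 315 genes had 2 probe sets past the floor, whose differences lay a median of 0.43 apart; 14 of the 37 members exceeded this size, and 35.1% of all genes past the floor did.

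The members that leaned towards the urethane lung were Plvap at 0.80, Icam2 at 0.71, Tie1 at 0.56, Klf2 at 0.54, Thbd at 0.48 and Cd93 at 0.44. Thbd is a known target of Klf2, while Nos3, another, was at -0.36, lower by at least 0.29 with its urethane value under the background mark. Towards the saline lung leaned Emcn at -0.83 and Fli1 at -0.69, both equal as deposited, and Sox18 at -0.64, Car4 at -0.61 and Ednrb at -0.59. Car4 was nearly equal as deposited, at 4.69 for saline and 4.73 for urethane lung, so its sign too was given by the normalization. Sox18 (3.89 for saline and 4.11 for urethane lung) and Ednrb (2.025 and 2.68) were higher in urethane lung as deposited. Their signs also rest on placing the arrays on one scale. Car4 and Ednrb mark the alveolar capillary cells known as aerocytes; Plvap, Gpihbp1 (0.03) and Aplnr (-0.07) belong to the general capillary or larger vessel cells. Pecam1 at -0.07, Egfl7 at 0.01 and Lyve1 at -0.04 were close on both lungs. In percentile ranks Icam2 moved from 79.0 to 86.1 and Tie1 from 59.7 to 70.4, while Ednrb moved from 88.0 to 82.9 and Sox17 from 80.3 to 74.5. The signs of Egfl7, Ramp2, Aplnr, Ptprb and Cd36 turned when each array was only moved to 1 common median.

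**Figure D5:**
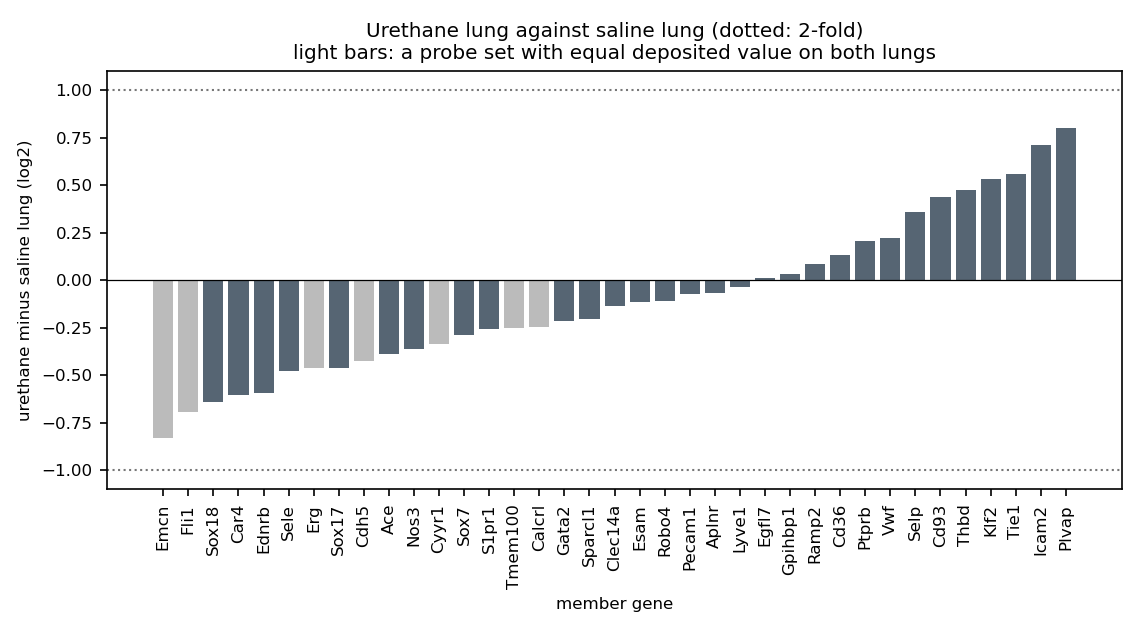
Urethane lung minus saline lung (vertical axis, log2 after quantile normalization) for each member gene (horizontal axis, ordered by size); light bars are genes with a probe set of equal deposited value on both lungs, and dotted lines mark 2-fold. All bars lie inside the dotted lines, from Emcn at -0.83 to Plvap at 0.80, and all 7 light bars point down.

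Of the 57 other endothelial genes 52 reached the floor between the lungs, and the median was -0.09. Of the 52, 2 were at least 2-fold higher in the urethane lung and none lower. Of all 12519 genes past the floor, 3.27% were higher and 1.31% lower, so the count is near the share of any gene. The highest were Kank3, a cytoskeletal adaptor, at 1.32 and Ccm2l at 1.01, and the lowest Mmrn1, a multimerin of platelets and lymphatic endothelium, at -0.95 and Gja4, a connexin of arteries, at -0.63. Kdr was at -0.28, Flt1 at 0.27, Tek at 0.12, Eng at -0.26 and Cldn5 at -0.19. Of 8 platelet genes 5 lay below 0, with Pf4 at -1.15 the one past 2-fold, Gp9 at -0.95 and Gp6 at 0.59 (at least 0.17). Of 11 leukocyte genes 8 lay below 0, with a median of -0.27 and none past 2-fold. As given for all genes, 55.6% lay below 0. Selp (0.36) and Vwf (0.22), which platelets also carry, lay above 0. Selp lay under the background mark on saline lung, so its rise is at least 0.02 only. Whether platelets or leukocytes had a part in any member's value was not tested.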

How the data were processed

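The authors deposited log2 values of 41345 probe sets on 3 arrays, made with RMA, a probe-level summary, per the submitters' processing notes, and GeneSpring GX 12.5, per the design text. The sources used here do not say which arrays were normalized together. Every column belonged to a sample of the series. Because the deposited log2 columns differ in scale, quantile normalization was run on the whole table, with the averaged sorted columns as target (Python 3.11, pandas 2.3.3), a step that stretches or compresses low values. The code was tested on simulated arrays with few changed probe sets, balanced up and down. That setting is simpler than these data, so it does not bear on how well the normalization suits them. A gene's value is the mean of its probe sets with 1 gene symbol (23521 probe sets, while 1814 with several and 16010 unnamed ones were left out); 23328 symbols were updated by Entrez identifier through RefSeq (GRCm38.p6), used only for names. Calls need 2-fold and the floor. With 1 array per group there is no test, and precision is limited by the number of arrays. The members, lists, background mark and other settings were chosen with earlier results of these data known. All members are named, with the 2 highest and 2 lowest of the other endothelial genes per comparison and Kdr, Tek, Flt1, Cldn5 and Eng; of each list of another cell type, the highest and lowest may be named. Itgb3, Ppbp, Pf4, Gp6, Gp9, Coro1a, Krt8, Krt18, Cdh1, Scgb1a1 and genes of equal value were partly named after their values were seen. Alternatives were other scalings, thresholds, floors and probe set rules.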

Additional observations from a re-analysis of the deposited data

How the results depend on the processing

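No replicates limit every value here, and signal over background limits Sele and Robo4, which lay under the olfactory receptor mark on all arrays. No paired analysis was possible because each group held 1 array; for the same reason no array could be left out. With the values as deposited, the median of all genes was 4.80 for FULA 1 minus saline lung, 3.69 for FULA 1 minus urethane lung and 1.09 for urethane minus saline lung. Members lower in FULA 1 then numbered 1 against saline lung and 1 against urethane lung, 13 members were higher in urethane lung, and the member medians turned to 2.18, 1.32 and 0.87; these follow the offsets between columns. Relative to the all-gene shift they lie below it. With each array moved to 1 common median the member medians were -2.70, -2.42 and -0.27, and 7 members were lower in urethane lung. The median against saline lung and urethane lung was -3.76 and -4.05 with the quantiles of FULA 1 as target, -4.16 and -3.73 after a lowess curve (span 0.3), and -3.30 and -3.52 with the floor at the 75th percentile; with the highest probe set of each gene it was -3.20 against saline lung. At 1.5-fold 2 members were higher and 5 lower in urethane lung. The split of all genes past the floor, lower and higher in FULA 1 than saline lung, was 2994 and 3073 in the values reported, 20 and 21703 as deposited, 1785 and 7058 with a common median, and 3010 and 2142 after lowess. Against urethane lung it was 2581 and 2930, then 22 and 21603, 1558 and 7154, and 2743 and 2160. Between the lungs it was 164 lower and 409 higher, then 0 and 5180, 203 and 215, 35 and 233 after lowess, and 897 and 979 with the quantiles of FULA 1. Member counts lower in FULA 1 stayed between 28 and 33 against saline lung and between 27 and 33 against urethane lung under all alternatives run other than the values as deposited. The median member rank on FULA 1 was 45.7 when ranked among genes. Within a tolerance of 0.05, 4 member probe sets were equal on all arrays and 8 on both lungs. Where a value moved and no construction shows why, the cause was not tested.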

Other observations

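Of the 49 named probe sets with an equal deposited value on at least 1 pair of arrays, 10 were members and 2 more, Eng and Cldn5, were on the list of other endothelial genes. Named probe sets equal on all 3 arrays numbered 9: beside Calcrl, Emcn and Erg they included Ldb2 (5.48), Serpina3n (3.90), Gdpd3 (5.81), Tppp3 (6.39) and Mgp (9.14). Tppp3 marks ciliated cells and Mgp encodes an inhibitor of calcification made by vessel walls and cartilage. The 21 probe sets equal on all arrays had a median percentile rank of 62.0 on FULA 1, 98.4 for saline and 98.0 for urethane lung. These genes were named after their values were seen.

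Ties within an array touched members too. On urethane lung Plvap and Cd93 shared 4.27, a value of 32 probe sets, and Sele held 1.11, a value of 1089 probe sets. On FULA 1 Fli1 and S1pr1 shared 5.16, a value of 35 probe sets. On saline lung the value of Selp, 0.09, was held by 335 probe sets. Also on urethane lung, 412 probe sets held the value of Aplnr, 277 that of Gpihbp1, 240 that of Ednrb and 105 that of Esam. On FULA 1, 102 held that of Sox18, and on saline lung 128 that of Robo4. Smaller ties touched further members. Differences of these members are coarse on those arrays.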
